A study of Mus musculus with 12 samples.

Results

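The genes described here encode the core of the NF-kappaB system: the subunits Nfkb1, Nfkb2, Rel, Rela and Relb, the inhibitors Nfkbia, Nfkbib and Nfkbie, and the kinases Ikbkb and Chuk. They were chosen by gene name among the array's probes that are not controls, which gave 16 probes of 10 genes, out of 43020 such spots and 29608 gene names on the array. RNA from the cortex of 12 adult female mice was measured, 4 in each group. MRL/lpr mice carry the lpr mutation of Fas on the MRL background and develop a lupus-like disease. The group named Fn14ko consists of mice of that strain that lack Fn14, the product of Tnfrsf12a, which is the receptor of the cytokine TWEAK. MRL/+ mice are the MRL/MpJ strain without lpr and served as controls. By the study's methods, MRL/lpr and Fn14ko mice came from a single colony and were littermates, whereas MRL/+ mice were bought from another source, so breeding source and the lpr mutation cannot be told apart. The arrays had 2 colours, and both mice of an array belonged to 1 group: array 1 carried replicates 1 and 2 and array 2 replicates 3 and 4, with the odd numbers labelled with Cy3 and the even numbers with Cy5. Every slide carried 1 group only, so an effect of the slide cannot be told apart from one of the group.

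NF-kappaB proteins are dimers of Rel-family subunits that inhibitors of the IkappaB family hold in the cytoplasm. In the canonical route, the kinase complex built on IKK-beta, the product of Ikbkb, marks IkappaB proteins for destruction and the dimers enter the nucleus. In the alternative route, which TWEAK is known to engage through Fn14, IKK-alpha, the product of Chuk, drives the processing of the Nfkb2 precursor, and dimers that hold Relb are released. In brain the system is known from neurons, glia and endothelium, and the protein's location and phosphorylation, which carry much of its control, are not seen in RNA.

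Among the members, Chuk was the only gene whose difference passed the test, and it was higher in MRL/lpr than in MRL/+ cortex by 1.86-fold (95% interval 1.36 to 2.53). That is 1 of 14 tested probes in this comparison, beside 15.0% of all 22419 probes. In Fn14ko against MRL/+ the count was 0 of 14, beside 1.09% of all probes, and in MRL/lpr against Fn14ko it was 0 of 14, beside 4.03%. At an unadjusted limma p under 0.05, 6, 2 and 1 of the 14 probes passed in the 3 comparisons in that order, and 8017, 5166 and 3883 of all probes. The median log2 fold change of the 14 probes was -0.13, -0.08 and -0.20 in the 3 comparisons, and the median over all probes was -0.15, -0.14 and -0.08. A signal of 1 is that of the median retained spot in the same mouse, tests are limma fits on the log2 scale with Benjamini-Hochberg adjustment over all probes, and a result passed where the adjusted p was under 0.05. For a single probe, exact 2-sided permutation p-values over 8 mice cannot be lower than 0.0286. They divide the 8 mice freely and take no account of the array or the dye.

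In some channels the background correction was set by a few spots. On array 1 of MRL/+ and array 1 of Fn14ko, 4 to 15 spots in each channel had a local background over 5 times the channel's median, up to 28862 against a median of 33.5 in MRL/+ 1. After correction by normexp, which fits a background model to a whole channel, the negative control spots lay at 0.338 of the median spot in MRL/+ 1 and 0.235 in Fn14ko 1, and at 0.0581 and 0.0613 when the local background of those spots was capped at that limit. The cap was chosen after the data were seen. It raised the calls over all probes to 26.0%, 15.7% and 13.1% in the 3 comparisons, and those of the members to 6, 2 and 1 of 14. Values with the cap are therefore given beside the members' values, and as counts for the gene lists. The Cy5 mice of MRL/+ also stood apart, with 35.0% and 21.2% of spots well above background, against 56.6% to 70.0% in the other 10 mice, and negative control spots at 0.6625 (MRL/+ 2) and 0.823 (MRL/+ 4), the latter not moved by the cap.

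**Figure D1:**
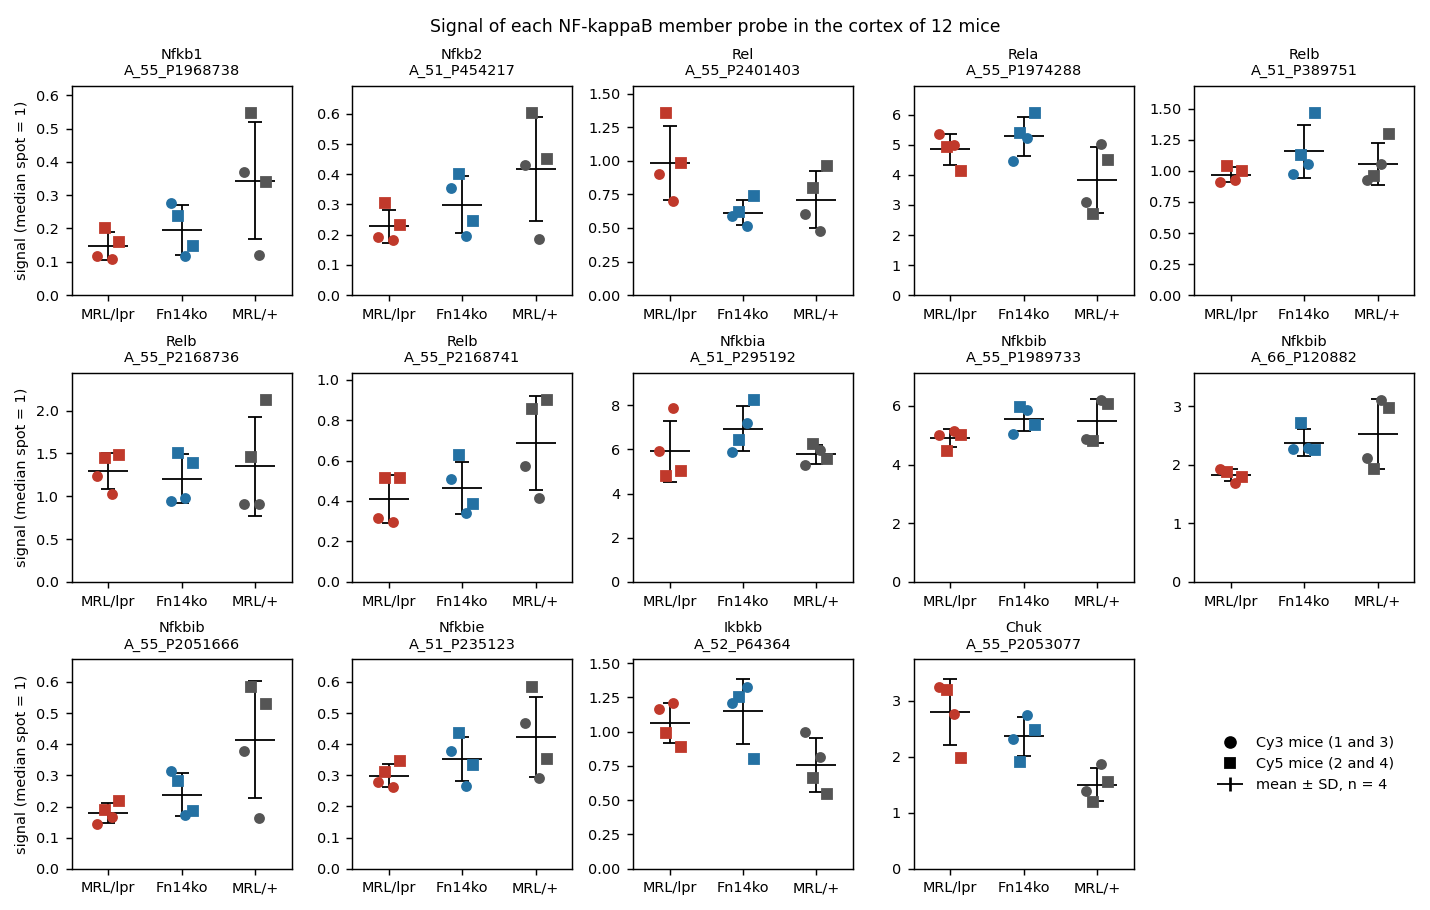
Signal of each tested probe in the 12 mice, where 1 is the median retained spot of that mouse; circles are Cy3 mice, squares Cy5 mice, and bars give the mean and SD of 4 mice. The 4 MRL/lpr and 4 Fn14ko mice all lie above the 4 MRL/+ mice for Chuk, while the MRL/+ mice spread widely for the dim probes of Nfkb1, Nfkb2 and Nfkbib.

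Tnfrsf12a, the gene deleted in Fn14ko, was checked first. Its signal was 1.86, 1.57, 1.90 and 1.38 in MRL/lpr, 0.739, 0.777, 0.604 and 0.655 in Fn14ko, and 1.02, 1.18, 0.943 and 1.28 in MRL/+. The 3 groups did not overlap, and MRL/lpr was higher than Fn14ko by 1.27 on the log2 scale (SE 0.20, adjusted p = 0.00351). The signal left in Fn14ko was well above background in 4 of 4 mice, and whether the probe lies in the deleted stretch is not known. Fas, which lpr disrupts, was at 0.165 to 0.284 in MRL/lpr, 0.171 to 0.331 in Fn14ko and 0.186 to 0.647 in MRL/+, with -1.14 (SE 0.45, adjusted p = 0.0984) for MRL/lpr against MRL/+. With the cap, Fas was lower than in MRL/+ in MRL/lpr (-0.81, adjusted p = 0.0476) and in Fn14ko (-0.90, adjusted p = 0.0456), and its probe was well above background in 2 of 4 MRL/+ mice. Capped values of Tnfrsf12a were 1.31 for MRL/lpr relative to Fn14ko (adjusted p = 0.000524), 0.58 for MRL/lpr relative to MRL/+ (adjusted p = 0.0201) and -0.73 for Fn14ko relative to MRL/+ (adjusted p = 0.0135). The 2 probes of Tnfsf12, which encodes TWEAK, gave -0.21 and -0.61 in MRL/lpr against MRL/+ (adjusted p = 0.480 and 0.228). With the cap they gave -0.12 and -0.48 in the same comparison, neither called.

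Of the markers of cortical excitatory neurons, 5 of 5 genes were bright enough to test. In MRL/lpr against MRL/+, single markers of several cell types passed the test. Of all probes, 15.0%, 1.09% and 4.03% were called in the 3 comparisons, and 26.0%, 15.7% and 13.1% with the cap. Among excitatory neuron markers 1 of 7 probes was higher (Tbr1) and 3 were lower (Camk2a, Neurod6, Slc17a7), and their summed signal was 34.3 to 39.9 in MRL/lpr, 32.4 to 41.8 in Fn14ko and 34.2 to 53.9 in MRL/+. The called Camk2a probe had means of 0.547 in MRL/lpr and 1.10 in MRL/+. The brighter Camk2a probe, at 9.59 and 7.85, gave 0.30 (adjusted p = 0.420), so a lower level of this gene is not shown. The called Tbr1 probe had means of 12.96 and 4.21, and the dim one, at 0.169 and 0.430, gave -1.13 (adjusted p = 0.155). Of endothelial markers, 3 of 7 probes were higher (2 of Flt1, 1 of Slco1a4), and the sum was 20.1 to 24.6 in MRL/lpr, 10.9 to 21.4 in Fn14ko and 11.3 to 14.5 in MRL/+. In the same order of groups, microglia had 1 of 12 probes higher (Aif1) and 1 lower (Itgam), with sums of 62.8 to 91.2, 63.3 to 86.1 and 64.8 to 84.9. Astrocytes had 1 of 12 lower (Gfap), with sums of 31.2 to 36.5, 42.4 to 44.3 and 31.0 to 46.7. Red blood cell markers had 1 of 4 higher (Hba-a1), with sums of 91.5 to 230.3, 33.0 to 95.4 and 24.8 to 46.9. Choroid plexus sums ran from 7.37 to 101.3, 13.7 to 182.5 and 17.8 to 264.5, striatal sums from 15.2 to 25.8, 11.3 to 117.9 and 9.31 to 13.0, and lymphocyte sums from 7.69 to 11.1, 4.77 to 7.68 and 6.58 to 14.1, with 0 probes called in these 3 lists in any comparison as given. Among the lists given here, the dim probe of Camk2a was lower in Fn14ko than in MRL/+, while the bright one gave -0.23 (adjusted p = 0.568). In MRL/lpr against Fn14ko, 1 probe of Gfap and that of Neurod6 were lower. With the cap, the probes called higher and lower in MRL/lpr against MRL/+ were 1 and 3 for excitatory neurons, 3 and 0 for endothelium, 2 and 2 for microglia, 0 and 2 for astrocytes and 2 and 0 for red blood cells. In Fn14ko against MRL/+ they were 0 and 3, 2 and 1, 0 and 2, 0 and 1, and 0 and 1 in the same order, with 0 and 1 for lymphocytes (Cd3e). For MRL/lpr against Fn14ko they were 2 and 2, 1 and 0, 0 and 0, 0 and 2, and 2 and 0, with 0 and 3 for choroid plexus (Folr1, Otx2 and Kl). The sums add signals, so they mostly follow the brightest probes of a list. In MRL/lpr, Fn14ko and MRL/+ the means were 7.81, 5.10 and 7.45 for Cd4 and 158.8, 65.1 and 29.95 for Hba-a1. For the brighter Itgam probe they were 36.7, 34.9 and 45.2. In bulk cortex fewer cells of a type and less RNA per cell cannot be told apart. The part of cell composition in the members' values was not tested.

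Of the subunits, Rel showed the widest separation between MRL/lpr and Fn14ko. Rel encodes c-Rel, a subunit with a transactivation domain best known from lymphocytes. The brighter of its 2 probes (A_55_P2401403, mm9 chr11:23637051-23637110, minus strand) gave 0.905, 1.36, 0.698 and 0.986 in MRL/lpr. It gave 0.586, 0.623, 0.514 and 0.736 in Fn14ko and 0.608, 0.797, 0.478 and 0.959 in MRL/+. MRL/lpr mice were high except MRL/lpr 3, which lay below Fn14ko 4, so the groups overlapped. On the log2 scale MRL/lpr differed from Fn14ko by 0.65 (SE 0.21, adjusted p = 0.107, exact permutation p = 0.0571), and it was 0.53 within the Cy3 mice and 0.77 within the Cy5 mice. With the cap it was 0.73 (SE 0.17, adjusted p = 0.0163). Against MRL/+ it was 0.48 (SE 0.21, adjusted p = 0.115), or 0.62 with the cap (adjusted p = 0.0203). For Fn14ko the difference from MRL/+ was -0.17 (adjusted p = 0.580). In MRL/+ this probe was well above background in 2 of 4 mice, and at its lowest it lay at 1.17 times the negative control level. The other Rel probe (A_51_P187461) was well above background in 0 of 12 mice, with foregrounds 1.30 to 3.76 times the local background, and was not tested.

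Rela encodes p65, the main activating subunit of the canonical route. Its single probe (A_55_P1974288, mm9 chr19:5648070-5648129, plus strand) gave 5.37, 4.92, 5.00 and 4.12 in MRL/lpr, 4.46, 5.40, 5.22 and 6.06 in Fn14ko, and 3.10, 2.70, 5.02 and 4.50 in MRL/+. The 2 mice on array 1 of MRL/+ were low and the 2 on array 2 lay within the other groups. Relative to MRL/+, the log2 difference was 0.50 for Fn14ko (SE 0.24, adjusted p = 0.220) and 0.38 for MRL/lpr (SE 0.24, adjusted p = 0.245). MRL/lpr against Fn14ko gave -0.12, with a 95% interval of -0.63 to 0.39. With the cap the first was 0.43 (adjusted p = 0.0721) and the groups did not overlap, since Fn14ko then started at 5.17 and MRL/+ ended at 5.02.

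Relb, the partner of p52 in the alternative route, had 3 probes, and they disagreed. The probe farthest upstream in the gene (A_55_P2168741, mm9 chr7:20203058-20203117, minus strand), which the files assign to an Ensembl transcript, gave 0.317, 0.514, 0.298 and 0.515 in MRL/lpr. It gave 0.507, 0.628, 0.338 and 0.386 in Fn14ko and 0.575, 0.854, 0.413 and 0.900 in MRL/+. All groups overlapped, and the Cy5 mice of MRL/+ were the highest. Relative to MRL/+, the log2 differences were -0.72 for MRL/lpr (SE 0.25, adjusted p = 0.0704) and -0.53 for Fn14ko (SE 0.25, adjusted p = 0.225). With the cap the first was -0.58 (SE 0.18, adjusted p = 0.0322). Its MRL/+ values were 1.09 to 5.80 times the negative control spots of the same mouse, and the part of that background in the difference was not tested. The other Relb probes share 9 bases of the genome. A_55_P2168736 ranged from 1.02 to 1.49 in MRL/lpr, 0.950 to 1.51 in Fn14ko and 0.906 to 2.13 in MRL/+, with the Cy5 mice above the Cy3 mice in each group, and its log2 fold change of MRL/lpr against MRL/+ was 0.02 (95% interval -0.42 to 0.46). A_51_P389751 ranged from 0.913 to 1.04, 0.978 to 1.47 and 0.924 to 1.30, with -0.12 (95% interval -0.48 to 0.24). The capped values of these 2 probes were -0.01 and -0.10. The sequence of the probe that stood apart from the other 2 is shown, since it lies in another stretch of the gene.
Relb A_55_P2168741: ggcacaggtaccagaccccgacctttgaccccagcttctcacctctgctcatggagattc

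Nfkb1 and Nfkb2 encode the precursors p105 and p100, from which p50 and p52 are cut. Nfkb1 was dim. Its tested probe (A_55_P1968738, mm9 chr3:135247621-135247680, minus strand) gave 0.116, 0.201, 0.109 and 0.158 in MRL/lpr, 0.277, 0.237, 0.117 and 0.148 in Fn14ko, and 0.369, 0.547, 0.119 and 0.338 in MRL/+. In MRL/+ 3, whose channel had a low background, it lay within the MRL/lpr range. The log2 fold change of MRL/lpr against MRL/+ was -1.08 (SE 0.53, adjusted p = 0.156) and with the cap -0.40 (SE 0.24, adjusted p = 0.232). The second Nfkb1 probe (A_55_P1968743, mm9 chr3:135254550-135254609, minus strand) was marked as uneven in MRL/lpr 3 and 4, where its foreground was 48.1 and 22.03 times the local background against 2.44 to 8.77 in the other 10 mice, and it was left out of the tests. With marked spots kept, its MRL/lpr signals were 0.170, 0.186, 0.774 and 1.49, and the 2 high values were those of the marked spot on a single array.

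Nfkb2 (A_51_P454217, mm9 chr19:46386146-46386285, plus strand) gave 0.191, 0.304, 0.183 and 0.232 in MRL/lpr, 0.355, 0.401, 0.195 and 0.246 in Fn14ko, and 0.429, 0.603, 0.185 and 0.450 in MRL/+. As for Nfkb1, MRL/+ 3 was as low as the MRL/lpr mice. The log2 fold change of MRL/lpr against MRL/+ was -0.78 (SE 0.37, adjusted p = 0.149) and with the cap -0.36 (SE 0.20, adjusted p = 0.193). For Fn14ko the differences from MRL/+ were -0.41 and -0.22. The file's coordinates span 140 bases for a probe of 60, so the probe joins separate stretches of the genome. The 2 probes below are shown because they bear on the subunits of least certain level.
Nfkb1 A_55_P1968743: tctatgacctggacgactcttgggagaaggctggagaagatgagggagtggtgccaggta
Nfkb2 A_51_P454217: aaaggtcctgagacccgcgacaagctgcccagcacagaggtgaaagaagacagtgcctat

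**Figure D2:**
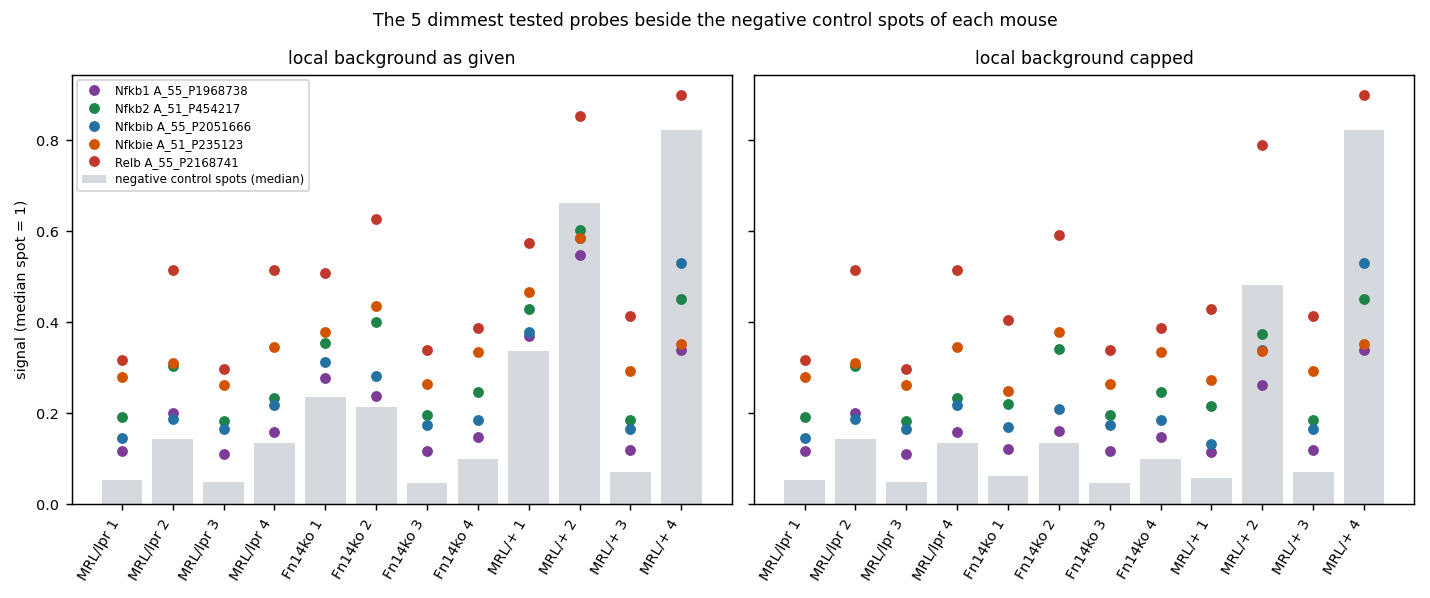
Signal of the 5 dimmest tested probes (points) beside the median of the 153 negative control spots (bars) of each mouse, where 1 is the median retained spot, with the local background as the files give it and with it capped. Where the bars are high, in MRL/+ 1, 2 and 4 as given and in MRL/+ 2 and 4 with the cap, most points are high too. Nfkbie is an exception in MRL/+ 4 as given, and in MRL/+ 2 and 4 with the cap.

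The dim probes moved with the negative control spots of the mouse. The negative controls lay at 0.338, 0.6625, 0.0713 and 0.823 in the 4 MRL/+ mice, at 0.235, 0.213, 0.0460 and 0.0990 in Fn14ko, and at 0.0483 to 0.144 in MRL/lpr. In MRL/+ 4 the Nfkb1 and Nfkb2 probes were 0.411 and 0.547 times the negative control level. Over the 12 mice, log2 signal and the log2 of this level had a Pearson r of 0.82 to 0.97 for the dim probes. It was -0.79 for Chuk, -0.66 for Rela and -0.65 for Ikbkb, and -0.42 to 0.52 for the rest. The part of this level in the members' log2 fold changes against MRL/+, negative or positive, was not tested.

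Of the inhibitors, Nfkbia encodes IkappaB-alpha, which NF-kappaB itself induces and which ends the canonical response. Its probe (A_51_P295192, mm9 chr12:56590945-56591440, minus strand) gave 5.91, 4.82, 7.89 and 5.04 in MRL/lpr, 5.90, 6.44, 7.20 and 8.25 in Fn14ko, and 5.29, 6.26, 5.98 and 5.58 in MRL/+. The groups overlapped throughout. Relative to MRL/+, the log2 differences were 0.01 for MRL/lpr (95% interval -0.48 to 0.50, adjusted p = 0.982) and 0.26 for Fn14ko (SE 0.23, adjusted p = 0.451). MRL/lpr relative to Fn14ko gave -0.25 (SE 0.23, adjusted p = 0.658). With the cap they were -0.18, 0.16 and -0.34, and none of the 3 passed. Within the Cy3 mice MRL/lpr exceeded MRL/+ by 0.28, and within the Cy5 mice the difference was -0.26.

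Nfkbib encodes IkappaB-beta, an inhibitor that is restored more slowly than IkappaB-alpha. The probe A_66_P120882 (mm9 chr7:29545252-29546647, minus strand) gave 1.93, 1.87, 1.69 and 1.79 in MRL/lpr, 2.26, 2.72, 2.29 and 2.24 in Fn14ko, and 2.11, 1.93, 3.11 and 2.96 in MRL/+. All 4 MRL/lpr mice lay below all others, by a narrow gap to MRL/+ 2. For MRL/lpr the log2 difference was -0.44 from MRL/+ (SE 0.20, adjusted p = 0.125, exact permutation p = 0.0286) and -0.38 from Fn14ko (SE 0.20, adjusted p = 0.340, exact permutation p = 0.0286). With the cap they were -0.56 (SE 0.14, adjusted p = 0.0144) and -0.44 (SE 0.14, adjusted p = 0.0618).

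The second Nfkbib probe (A_55_P1989733, mm9 chr7:29544160-29544219, minus strand) gave 5.01, 4.47, 5.13 and 5.01 in MRL/lpr, 5.06, 5.96, 5.85 and 5.35 in Fn14ko, and 4.88, 4.80, 6.21 and 6.05 in MRL/+. The MRL/+ mice fell into their 2 arrays, with array 1 within the MRL/lpr range. The log2 fold change of MRL/lpr against MRL/+ was -0.15 (SE 0.18, adjusted p = 0.547). With the cap the 4 MRL/+ mice lay between 6.05 and 6.21, above all MRL/lpr mice, and the value was -0.33 (SE 0.11, adjusted p = 0.0499). The third probe (A_55_P2051666, mm9 chr7:29543270-29543329, minus strand) was dim and followed the negative controls, with 0.145 to 0.219 in MRL/lpr, 0.174 to 0.313 in Fn14ko and 0.164 to 0.585 in MRL/+. It gave -1.07 in MRL/lpr against MRL/+ (SE 0.44, adjusted p = 0.107), and -0.49 with the cap (SE 0.29, adjusted p = 0.218). The 2 bright Nfkbib probes are shown with that of Nfkbia. A_66_P120882 spans 1396 bases of the genome and the Nfkbia probe 496, so each joins separate stretches of it.
Nfkbia A_51_P295192: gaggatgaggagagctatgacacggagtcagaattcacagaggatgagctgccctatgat
Nfkbib A_66_P120882: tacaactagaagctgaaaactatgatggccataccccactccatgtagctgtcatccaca
Nfkbib A_55_P1989733: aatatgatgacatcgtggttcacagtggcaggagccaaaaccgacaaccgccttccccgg

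Nfkbie encodes IkappaB-epsilon, an inhibitor that acts late. Its probe (A_51_P235123, mm9 chr17:45700000-45700059, plus strand) gave 0.262 to 0.345 in MRL/lpr, 0.2645 to 0.435 in Fn14ko and 0.292 to 0.584 in MRL/+. The groups overlapped. The log2 fold change of MRL/lpr against MRL/+ was -0.46 (SE 0.27, adjusted p = 0.217), and it was -0.07 with the cap (95% interval -0.36 to 0.23).

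The kinases had the largest positive log2 differences of the 14 probes in both comparisons with MRL/+. Chuk (A_55_P2053077, mm9 chr19:44147897-44147956, minus strand), which encodes IKK-alpha, gave 3.25, 3.20, 2.77 and 1.98 in MRL/lpr. It gave 2.31, 1.91, 2.74 and 2.48 in Fn14ko and 1.39, 1.19, 1.88 and 1.55 in MRL/+. All mice of both lpr groups lay above all MRL/+ mice, while MRL/lpr and Fn14ko overlapped. MRL/lpr exceeded MRL/+ by 0.89 on the log2 scale (SE 0.21, adjusted p = 0.0143, exact permutation p = 0.0286), and it was 0.89 within the Cy3 mice and 0.89 within the Cy5 mice. Fn14ko against MRL/+, with the same controls, gave 0.66 (SE 0.21, adjusted p = 0.114, exact permutation p = 0.0286), with 0.64 and 0.68 within the dyes. MRL/lpr against Fn14ko gave 0.23 (95% interval -0.21 to 0.68, adjusted p = 0.649). Capped, the 3 values were 0.84 (adjusted p = 0.00419), 0.66 (adjusted p = 0.0238) and 0.17 (adjusted p = 0.523).

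The difference of Chuk between MRL/lpr and MRL/+ lost its call without MRL/+ 4 (0.91, adjusted p = 0.0553), without both Cy5 mice of MRL/+ (0.88, adjusted p = 0.0730), without the filter on dim spots (1.49, adjusted p = 0.147) and by the methods' t-test after adjustment (0.90, adjusted p = 0.111). It was 0.79 to 1.00 over the 8 fits that each left out 1 mouse. It rests on a single probe, which was well above background in 3 of 4 MRL/+ mice and at its lowest there 1.79 times the negative control level. Over the 12 mice the probe's log2 signal had a Pearson r of -0.79 with the log2 of that level. The part of that level in the difference was not tested.

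Ikbkb (A_52_P64364, mm9 chr8:23770254-23770313, minus strand), which encodes IKK-beta, gave 1.16, 0.993, 1.21 and 0.891 in MRL/lpr. It gave 1.21, 1.26, 1.33 and 0.804 in Fn14ko and 0.996, 0.661, 0.818 and 0.548 in MRL/+. MRL/+ 1 lay within the other groups and Fn14ko 4 within the MRL/+ range. Relative to MRL/+, the log2 differences were 0.52 for MRL/lpr (SE 0.20, adjusted p = 0.0854, exact permutation p = 0.0857) and 0.61 for Fn14ko (SE 0.20, adjusted p = 0.119, exact permutation p = 0.0857). MRL/lpr against Fn14ko gave -0.09 (95% interval -0.52 to 0.33). With the cap the first values were 0.63 (SE 0.17, adjusted p = 0.0206) and 0.75 (SE 0.17, adjusted p = 0.0183). The probe was well above background in 2 of 4 MRL/+ mice, and in MRL/+ 4 it lay at 0.666 times the negative control level.

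**Figure D3:**
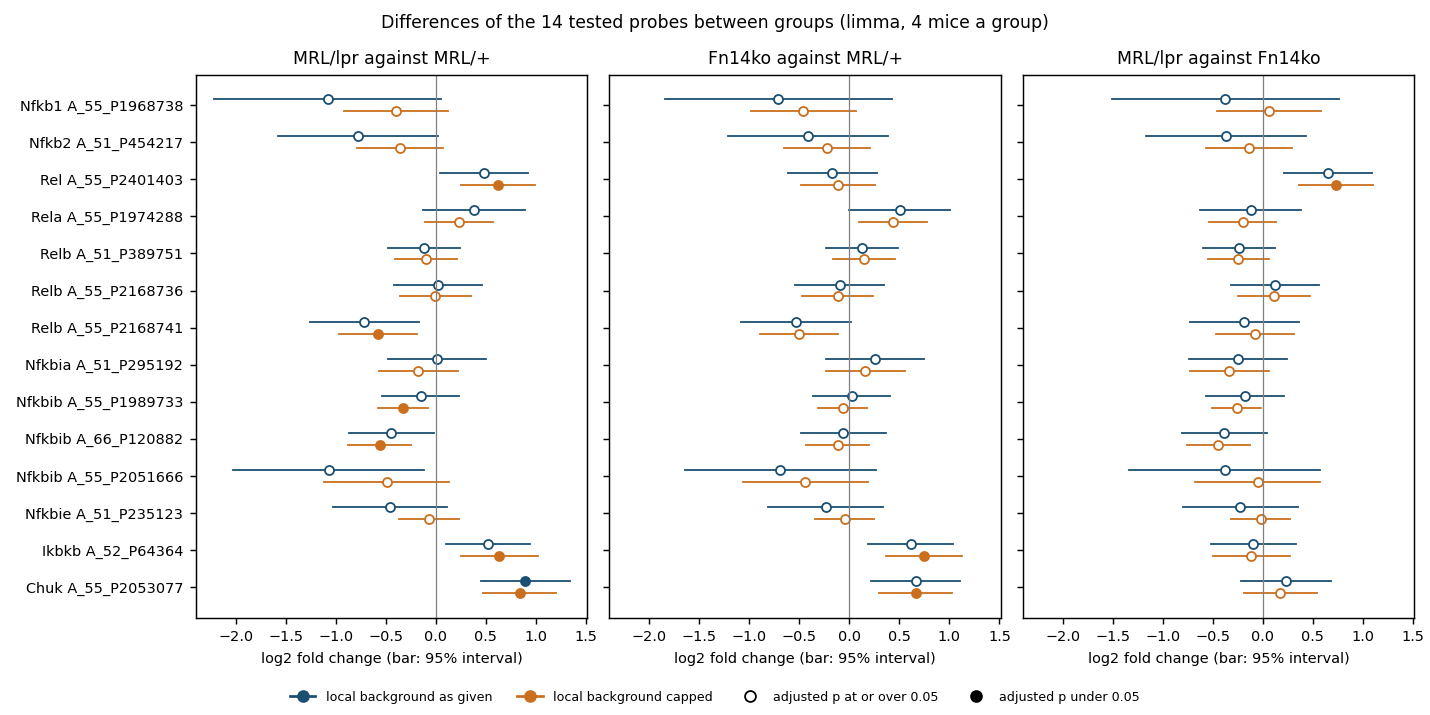
Log2 fold change of each tested probe in the 3 comparisons, with 95% intervals, with the local background as the files give it and with it capped; filled points have an adjusted p under 0.05. Chuk in MRL/lpr against MRL/+ is the single filled point as given, and 6, 2 and 1 points are filled with the cap.

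The other genes of the pathway were counted from lists, and no list was tested as a set. Beside these counts, 15.0%, 1.09% and 4.03% of all probes were called in the 3 comparisons as given. With the cap the shares were 26.0%, 15.7% and 13.1%. Of 27 upstream adaptors and kinases, 23 genes with 31 probes were tested, and in MRL/lpr against MRL/+ 0 probes were higher and 3 were lower. Those were Ikbkg, the regulatory subunit of the kinase complex (-1.21, SE 0.29, adjusted p = 0.0162), Traf6, an adaptor of Toll-like and interleukin-1 receptors (-0.94, SE 0.29, adjusted p = 0.0447), and Traf1, an adaptor of TNF receptors (-1.32, SE 0.41, adjusted p = 0.0479). The mean signals of the 3 probes were 0.187 to 0.347 in MRL/lpr, where each was well above background in 3 or 4 of 4 mice. In MRL/+ the means were 0.523 to 0.688, in the range of the negative controls of that group. There each probe was well above background in 2 of 4 mice. In the other comparisons 0 of 31 probes passed as given. With the cap 1 was higher and 2 were lower in Fn14ko against MRL/+ (Map3k7, and both Ikbkg probes), and 1 was higher and 1 lower in MRL/lpr against Fn14ko (Traf5 and Fbxw11). The called Map3k7 probe was well above background in 2 of 4 MRL/+ mice. The other Map3k7 probe gave -0.17 with the cap in Fn14ko against MRL/+. The list's median log2 fold change was -0.13, 0.01 and -0.18 in the 3 comparisons. With the cap the 3 kept their calls and 2 higher and 4 lower probes passed in all in MRL/lpr against MRL/+, among them Traf5, another TNF receptor adaptor, at 1.41 (SE 0.24, adjusted p = 0.00189).

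Of 13 further inhibitors and atypical IkappaB genes, all were tested with 18 probes. In MRL/lpr against MRL/+ 2 probes were lower, those of Otud7b, a deubiquitinase (-1.10, SE 0.24, adjusted p = 0.00986), and Nkiras2, which binds IkappaB (-1.15, SE 0.32, adjusted p = 0.0311), and 0 were higher. Both were dim, with means of 0.348 and 0.242 in MRL/lpr and 0.738 and 0.554 in MRL/+. With the cap they gave -0.96 (adjusted p = 0.00426) and -0.93 (adjusted p = 0.00627). The other Nkiras2 probe, with means of 1.46 and 1.02, gave a difference of the opposite sign (0.55, SE 0.22, adjusted p = 0.104, and 0.51 with the cap), so the direction for this gene is not settled. In MRL/lpr against Fn14ko, Pdlim2, a factor in the turnover of nuclear p65, was lower (-1.08, SE 0.27, adjusted p = 0.0393), with means of 1.26 and 2.64, and its probe was well above background in 12 of 12 mice. With the cap Pdlim2 gave -1.14 (adjusted p = 0.00807) in that comparison and -0.91 (adjusted p = 0.0137) against MRL/+. In Fn14ko against MRL/+ 0 of 18 passed, with the cap too. The medians were -0.13, 0.01 and -0.05. With the cap 1 probe was higher and 4 were lower in MRL/lpr against MRL/+, and 1 was higher and 1 lower in MRL/lpr against Fn14ko. The higher probe was that of Nfkbid, an atypical IkappaB, in both (0.94, adjusted p = 0.00763, and 0.79, adjusted p = 0.0292).

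Of 26 target genes of NF-kappaB, 15 with 18 probes were tested, and Il1b, Il6, Tnf and 8 others were not. In MRL/lpr against MRL/+ 1 probe was lower, that of Bcl2l1, which encodes the survival protein Bcl-xL (-1.72, SE 0.34, adjusted p = 0.00632), and 0 were higher. Its means were 0.183 in MRL/lpr and 0.606 in MRL/+, the latter in the range of the negative controls of MRL/+. With the cap it gave -1.55 (adjusted p = 0.000305). The other Bcl2l1 probe, with means of 23.6 and 17.4 and well above background in 12 of 12 mice, gave a difference of the opposite sign (0.45, SE 0.21, adjusted p = 0.140, and 0.25 with the cap), so a lower level of this gene is not shown. In the other comparisons 0 of 18 passed as given. The medians were -0.24, -0.01 and -0.38. With the cap 4 target genes were higher in Fn14ko than in MRL/+: Vcam1, an adhesion molecule of endothelium (1.44, SE 0.32, adjusted p = 0.0160), the chemokines Ccl2 (2.29, SE 0.52, adjusted p = 0.0166) and Ccl5 (1.45, SE 0.36, adjusted p = 0.0223), and the transcription factor Irf1 (0.88, SE 0.26, adjusted p = 0.0395). Of the 4 MRL/+ mice, Vcam1 was well above background in 2, Ccl2 in 1, Ccl5 in 2 and Irf1 in 3, and the other Vcam1 probe gave -0.37. In that comparison 1 probe was lower with the cap, the dim one of Bcl2l1 (-1.38, adjusted p = 0.00192). Of all probes, 15.7% were called there with the cap, higher or lower. MRL/lpr against MRL/+ had 1 higher with the cap (Vcam1, 0.96, adjusted p = 0.0482) beside the 1 lower, and MRL/lpr against Fn14ko had 2 lower (Ccl2, -2.33, adjusted p = 0.0137, and Lcn2, -1.14, adjusted p = 0.0350). In MRL/lpr, Ccl2 was well above background in 1 of 4 mice, with a mean of 0.179 as given, and Lcn2 in 4 of 4. Genes of the lists that passed with the cap only were named after their values were seen.

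The members' own promoters were searched for the kappaB consensus, the 10-letter motif that NF-kappaB dimers bind, on both strands. RefSeq (GRCm38.p6) entries were found for 7 of 10 members, with 9 entries in all. In the 250 bases before the start, 6 of 9 entries held a match, against 7.3% of 32851 entries. The genes with a match were Nfkb2, Rel, Nfkbia and Nfkbie, and the entries of Chuk, Rela and Nfkbib held none. Nfkb2 had several entries, each with a match and some of them overlapping, so the entries are not separate genes. Overlapping matches were counted by position, and a match is a description of letters and not a site. The stretches of Nfkbia, the inhibitor that NF-kappaB induces, and of Rel, the subunit with the widest separation between MRL/lpr and Fn14ko, are shown 5′ to 3′ along the gene with the matches in capitals. They lie at chr12:55492648-55492897 and chr11:23770970-23771219, both on the minus strand.
Nfkbia: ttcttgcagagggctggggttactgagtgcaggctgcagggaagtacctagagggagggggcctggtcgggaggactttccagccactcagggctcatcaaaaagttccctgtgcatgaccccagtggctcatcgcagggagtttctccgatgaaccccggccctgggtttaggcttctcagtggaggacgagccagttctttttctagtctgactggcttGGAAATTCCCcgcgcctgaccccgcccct
Rel: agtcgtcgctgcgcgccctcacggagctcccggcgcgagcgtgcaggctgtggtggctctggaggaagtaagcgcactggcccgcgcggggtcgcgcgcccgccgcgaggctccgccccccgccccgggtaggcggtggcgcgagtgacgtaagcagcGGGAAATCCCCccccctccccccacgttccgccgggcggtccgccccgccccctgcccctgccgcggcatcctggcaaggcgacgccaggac

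For the 3 member probes with the lowest limma p, the genes whose signals ran most alike over the 12 mice were listed, after the mean difference between dyes was removed. For Chuk these were Csnk1g2, Sppl2b and Tut7, with Pearson r of 0.967, 0.962 and 0.962. For Rel they were Osbpl3, Gm16066 and Hspb3 (0.953, 0.923 and 0.920), and for Ikbkb they were Srpr, Zfpl1 and Rras (0.973, 0.968 and 0.965). These are the highest of 22418 probes compared, the mice share groups, arrays and slides, and the values are a description only.

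**Figure D4:**
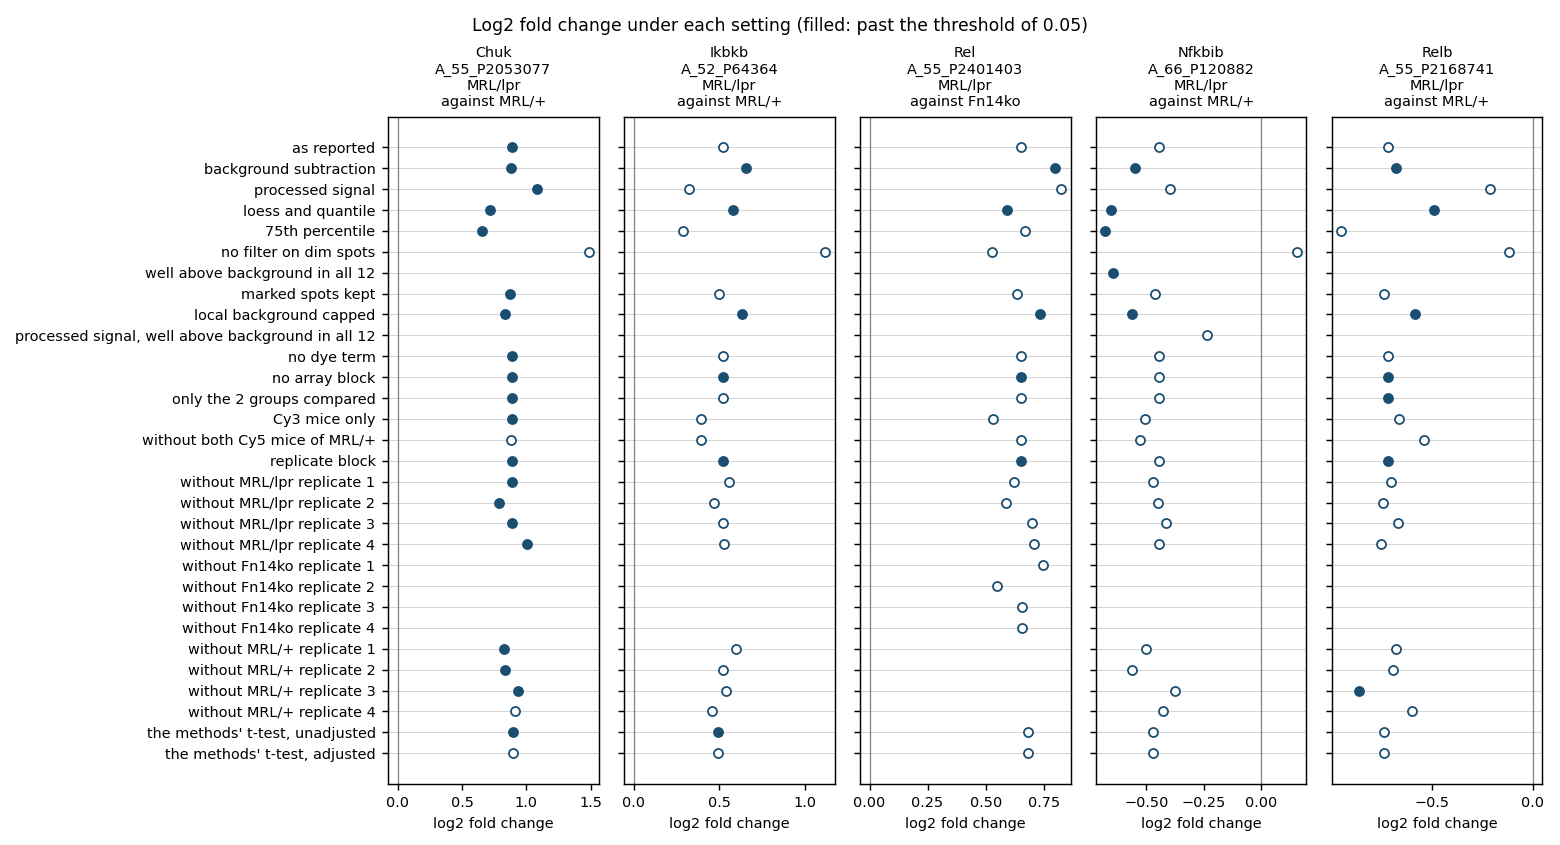
Log2 fold change of 5 probes under each setting of the processing (rows), filled where the value passed the threshold of 0.05, which is an unadjusted p in the row so named. Chuk stays above 0 in every row that could be fitted, and Nfkbib A_66_P120882 is above 0 without the filter on dim spots only.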

How the data were processed

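The authors deposited scanner output for 6 Agilent arrays: the mean foreground intensity and median local background intensity of every spot in both dyes, before normalization, with quality marks and the software's processed signal. The software was Agilent Feature Extraction per the labels. Samples and dyes were taken from the labels, and gene names and mm9 coordinates from the files. The members and gene lists were chosen with earlier results of these data known.

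Left out were 1952 spots marked as uneven or as outliers, and those whose foreground was below 2 times the local background in at least 1 of the 12 samples. This kept 24255 spots and 22419 probes. Background was corrected by normexp (limma 3.58.1, R 4.3.3, offset 50), channels were scaled so that their median retained spot equals 1, and repeated spots were averaged by probe. Log2 signals were fitted by limma with group and dye, the array as a random block (correlation 0.325; 0.0413 with the cap) and a variance trend; p-values were adjusted by Benjamini-Hochberg over all probes. Processing differs from the study's, which normalized iteratively to the median gene. The fit was tested on simulated data. With 6 arrays, precision was limited, and log2 fold changes had a median SE of 0.27. The labels number the mice but give no shared litter or day, so p-values measure the spread between these mice.

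All member probes were named by rule. So were the genes checked against the labels, and the other pathway genes that passed the test (at most 4 for each list and comparison), with the 3 nearest patterns of the 3 probes with the lowest p. Drd1a was matched to Drd1 through the RefSeq table, and Bcl2a1a had no probe by that name. The result of 1 marker list is not reported here. Alternatives covered background subtraction, the processed signal, loess with quantile scaling, the 75th percentile, other filters, marked spots kept, gene means, other models, the Cy3 mice only, mice left out and the methods' t-test. The cap on local background and the processed signal of probes well above background in all 12 samples were added after the data were seen. Python 3.11.15, pandas 2.3.3, numpy 2.4.6 and matplotlib 3.10.9 were used.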

Additional observations from a re-analysis of the deposited data

Results flagged for a closer look

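In Fn14ko, the Nfkbib probe A_66_P120882 gave 2.72 in replicate 2, far from the other 3 mice at 2.24 to 2.29. By the gap between that mouse and its nearest neighbour relative to the range of the group, 1 of 42 groups of 4 mice stood out, and chance gives about 1 in 20.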

How the results depend on the processing

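The count of member probes past the threshold in MRL/lpr against MRL/+ was 1 as reported. It was 5 with background subtraction, 2 with the processed signal, 6 with loess and quantile scaling, 2 with the 75th percentile, 0 without the filter on dim spots, 6 with the local background capped, 0 with the processed signal of probes well above background in all 12, 5 without the array block, 2 with the compared groups only, 0 without both Cy5 mice of MRL/+, and 2 by the methods' t-test unadjusted and 0 adjusted. In Fn14ko against MRL/+ it was 0 as reported, 2 with background subtraction, 1 with the processed signal, 1 with loess, 2 with the cap, 2 without the array block and 2 by the methods' t-test unadjusted. In MRL/lpr against Fn14ko it was 0 as reported and 1 with background subtraction, loess, the cap, no array block or the methods' t-test unadjusted. With 1 mouse left out at a time the counts were 0 to 5, 0 and 0. The 5 came without MRL/+ 3 and the 0 without MRL/+ 4. With a replicate block in place of the dye term the counts were 7, 1 and 1. Same-numbered mice did not all deviate together (r from -0.128 to 0.721 over probes). Within dyes r was 0.0275 to 0.0791 for MRL/lpr with either other group, and 0.382 and 0.808 for Fn14ko with MRL/+. Within a dye each group has 2 mice, 1 on each array, so this r cannot tell paired mice from arrays that differ alike. The labels give no pairing, and whether the numbers pair the mice is not settled. Where only probes well above background in all 12 samples were kept, 5 member probes were tested, and that of Chuk was not among them. The 1 call was Nfkbib A_66_P120882 in MRL/lpr against MRL/+ (-0.65, adjusted p = 0.0110). Without the filter on dim spots, 16 of 38661 probes passed in MRL/lpr against MRL/+. Otherwise the cause of these changes was not tested.

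Over all probes, MRL/lpr against MRL/+ had 16 to 7560 calls, Fn14ko against MRL/+ 0 to 4393 and MRL/lpr against Fn14ko 38 to 4757 in the settings tried. No member difference changed direction while past the threshold in either setting. Differences of uncalled probes changed sign in up to 13 of 42 cases, without the filter on dim spots. With the 75th percentile the median of all probes was -0.38 in MRL/lpr against MRL/+, against -0.15 as reported, and Chuk was then 0.66 (adjusted p = 0.0342). Signals near the negative controls limit Nfkb1, Nfkb2, Nfkbie and single probes of Nfkbib and Relb. In MRL/+ they also limit the tested probes of Rel and Ikbkb, which at their lowest lay at 1.17 and 0.666 times the negative control level. Chuk in MRL/lpr against MRL/+ was past the threshold in 18 of 22 alternatives with an adjusted p, which ran from 0.00275 to 0.147.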
